A study of Mus musculus with 16 samples.

Results

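The genes that encode the H3K4 demethylases Kdm1a, Kdm1b, Kdm5a, Kdm5b and Kdm5c, together with Cxxc1, were followed through the growth of the mouse oocyte. They were taken by name from the deposited expression table, and all 6 were found among its 25965 rows. Kdm1b, the most abundant of them by a wide margin, fell 1.54-fold between the 40–45 and 60–65 μm size classes, Kdm5b fell from a mean of 1.90 to 0.291 RPKM and Kdm5a from 2.34 to 1.05 RPKM over the whole of growth, and for Kdm1a, Kdm5c and Cxxc1 no change passed the test. The starts of all 6 genes carried little DNA methylation in every library, whereas the bodies of Kdm1b and Kdm5b were less methylated in 60–65 μm oocytes than those of the other members.

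All oocytes came from wild-type C57BL/6 mice (C57BL/6Babr in the study's methods) and were sorted by diameter. RNA-seq libraries were made in duplicate (replicates A and B) from oocytes of 10–30 μm (post-natal days 5–7), 40–45 μm (days 7–12), 50–55 μm (days 9–14) and 60–65 μm (days 13–16), and 1 column of values was given for full-size oocytes with an intact germinal vesicle (GV, day 20). DNA methylation was measured in duplicate by reduced representation bisulphite sequencing (RRBS), which covers mainly CpG-rich sequence, in the 3 larger classes of growing oocytes, and by post-bisulphite adapter tagging (PBAT), which covers the genome without enrichment, in 1 library of 60–65 μm oocytes. Each library was a pool of oocytes, and size class cannot be told apart from the age of the mice.

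Methylation of lysine 4 on histone H3 marks active and poised promoters, and the DNMT3A–DNMT3L complex that writes DNA methylation in the oocyte binds poorly to histone tails that carry it. Enzymes that remove the mark can therefore open a region to DNA methylation. The KDM1 proteins are flavin-dependent enzymes that remove mono- and dimethylation. KDM1A (LSD1) acts with CoREST corepressors throughout the body, and KDM1B (LSD2) is needed in the oocyte for methylation of many imprinted loci. The KDM5 proteins are Jumonji-type enzymes that remove di- and trimethylation. CXXC1 (CFP1) works the other way, since its CXXC zinc finger binds unmethylated CpGs and brings the SETD1 methyltransferases to them.

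The promoters of Kdm1a, Kdm1b and Kdm5b are shown, with CpGs in capitals, because the 3 genes stand for a stable level, a high level that fell and a low level that fell. Each sequence runs 5′ to 3′ along the gene, from 250 bases before its start to 50 bases into it (RefSeq, GRCm38.p6), and lies at chr4:136602674-136602973 on the minus strand for Kdm1a, at chr13:47043249-47043548 on the plus strand for Kdm1b and at chr1:134559928-134560227 on the plus strand for Kdm5b. For Kdm5b this RefSeq start lies a few bases inside the gene start used elsewhere here, chr1:134560171.
Kdm1a: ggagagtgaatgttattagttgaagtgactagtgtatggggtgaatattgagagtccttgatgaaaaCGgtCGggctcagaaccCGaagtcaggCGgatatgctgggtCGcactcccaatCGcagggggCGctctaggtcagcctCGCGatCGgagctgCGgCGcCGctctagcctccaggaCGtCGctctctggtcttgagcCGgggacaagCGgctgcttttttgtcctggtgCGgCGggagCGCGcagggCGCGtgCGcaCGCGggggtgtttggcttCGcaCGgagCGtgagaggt
Kdm1b: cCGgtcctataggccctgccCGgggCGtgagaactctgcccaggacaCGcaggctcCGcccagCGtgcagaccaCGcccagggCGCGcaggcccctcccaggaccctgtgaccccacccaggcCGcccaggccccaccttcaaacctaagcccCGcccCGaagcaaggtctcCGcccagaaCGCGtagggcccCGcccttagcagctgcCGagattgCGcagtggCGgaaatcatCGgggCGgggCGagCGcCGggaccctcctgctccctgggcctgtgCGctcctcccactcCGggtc
Kdm5b: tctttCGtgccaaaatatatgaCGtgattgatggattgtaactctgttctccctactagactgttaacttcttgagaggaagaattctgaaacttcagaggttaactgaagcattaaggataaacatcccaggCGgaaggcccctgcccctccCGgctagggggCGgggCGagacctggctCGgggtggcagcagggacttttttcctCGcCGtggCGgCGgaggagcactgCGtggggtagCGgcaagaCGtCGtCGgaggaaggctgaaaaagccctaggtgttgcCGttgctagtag
The sequences held 29 CpGs for Kdm1a, 26 for Kdm1b and 17 for Kdm5b. Of the 32619 RefSeq promoters of this length on chromosomes 1 to 19 and X, 13%, 17% and 31.6% held at least as many, and the median promoter held 7. The GC box GGGCGG, searched on both strands, occurred at 6 places in the Kdm1b promoter, at 1 in that of Kdm5b and not in that of Kdm1a, and 35.9% of all promoters held it. An entry was matched for 4 of the 6 members, the fourth being Kdm5c with 13 CpGs.

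Levels are in RPKM, reads scaled to the length of the exons and to the size of the library, so they can be set side by side between genes. They are relative to the RNA of the library, so a fall in RPKM is a fall in share. The study describes a substantial increase of mRNA content as oocytes grow, so transcripts per oocyte need not have fallen. Fewer cells of a type and less RNA per cell cannot be told apart in such pools. With an exon length fitted to each gene, the values of the genes tested were whole multiples of what 1 read is worth, and 26181208 to 58479604 reads in genes per column were recovered in this way. Correlations between replicates lay between 0.986 and 0.995 over 10518 genes tested, with the lowest in the 10–30 μm class. The oocyte markers summed to 2609–3409 RPKM in growing oocytes, against 0.814–3.12 RPKM for 9 granulosa cell markers, 0.415–3.88 RPKM for 7 stroma and theca markers and 0.26–0.463 RPKM for 5 blood and immune markers. Of these lists 2, 2 and 4 genes stayed below 0.1 RPKM in every column, and no gene was at 0 in all of them, although the theca marker Cyp17a1 and the erythroid Alas2 were at 0 in both 10–30 μm libraries.

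The KDM1 pair was dominated by Kdm1b. Kdm1b (chr13:47043499-47084613, plus strand) had 99.2 and 115 RPKM in replicates A and B of the 10–30 μm class, 99.8 and 107 RPKM at 40–45 μm, 84.2 and 87.4 RPKM at 50–55 μm, 65.5 and 73.7 RPKM at 60–65 μm, and 58.3 RPKM in GV oocytes. The 10–30 and 40–45 μm libraries overlapped, the 50–55 and 60–65 μm classes each lay below the class before, and the GV value lay below every library of growing oocytes. Averaged over the 8 libraries of growing oocytes, Kdm1b reached 91.4 RPKM and ranked 94 among the genes tested, above 99.1% of them. The study reported a substantial rise of Kdm1b in a series that also held non-growing oocytes of the embryo. That stage is absent here, so a rise before the 10–30 μm class could not be seen.

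Tests between size classes were made with limma on log2(RPKM + 0.1), with Benjamini-Hochberg adjustment over all genes tested and a threshold of 0.05. For Kdm1b the difference from 10–30 to 40–45 μm was 0.01 on the log2 scale (SE 0.105, adjusted p = 0.932). From 40–45 to 60–65 μm, the interval that the RRBS libraries span, it fell by 0.62 (SE 0.105, adjusted p = 0.00304), from 103 ± 5.07 to 69.6 ± 5.8 RPKM (SD, n = 2 libraries each). The 2 steps themselves differed by -0.63 (SE 0.181), which did not pass the test (adjusted p = 0.191). Of the 10518 genes tested, 0 passed this test in either direction, so the miss is not particular to Kdm1b. Neither the step from 40–45 to 50–55 μm (-0.29, adjusted p = 0.116) nor that from 50–55 to 60–65 μm (-0.33, adjusted p = 0.234) passed on its own. Kdm1b shares 1239 bases with Tpmt on the other strand, whose RPKM lay between 4.76 and 7.70 in growing oocytes. The RNA kit keeps the strand, but whether the table was counted by strand is not given in the sources used here.

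Kdm1a (chr4:136550540-136602723, minus strand), which encodes the paralogue that is used throughout the body, had 4.58 and 6.36 RPKM at 10–30 μm, 5.22 and 6.20 RPKM at 40–45 μm, 5.41 and 5.62 RPKM at 50–55 μm, 5.31 and 5.39 RPKM at 60–65 μm, and 5.29 RPKM in GV oocytes. All later values lay within the range of the 10–30 μm pair. Over the whole of growth the log2 difference was -0.0017 with a 95% interval from -0.31 to 0.30, so a change of more than 1.24-fold in either direction lay outside the interval. The difference was 0.13 from 10–30 to 40–45 μm (95% interval -0.17 to 0.44, adjusted p = 0.504) and -0.13 from 40–45 to 60–65 μm (95% interval -0.44 to 0.17, adjusted p = 0.451). Kdm1a shares 4241 bases with Luzp1 on the other strand, and Luzp1 went from 3.90 and 5.38 RPKM at 10–30 μm to 10.9 and 10.1 RPKM at 60–65 μm. The part of these reads in the values of Kdm1a was not tested.

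Within a library the ratio of Kdm1b to Kdm1a was 21.6 and 18.0 at 10–30 μm, 19.1 and 17.3 at 40–45 μm, 15.6 in both libraries at 50–55 μm, 12.3 and 13.7 at 60–65 μm, and 11 in GV oocytes. Kdm1b thus supplied most of the demethylase RPKM at every size, with a share of the sum of the 5 genes of 86.9–88.9% in the first 3 classes, 84.0% and 85.5% at 60–65 μm and 83.3% in GV oocytes. That sum itself went from 113 and 132 RPKM at 10–30 μm to 78.0 and 86.2 RPKM at 60–65 μm and 69.9 RPKM in GV oocytes.

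**Figure D1:**
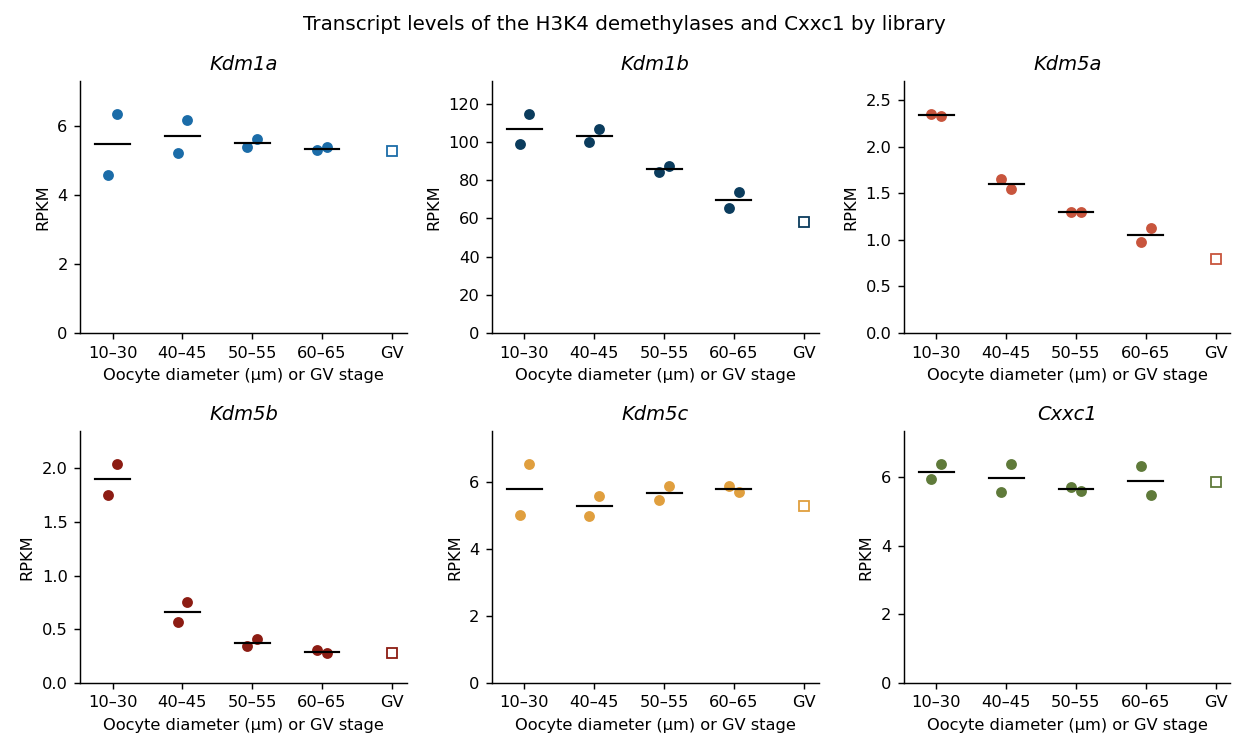
RPKM of each member by size class and in GV oocytes; filled circles are the 2 libraries of a class, lines their mean and open squares the GV column, with an axis from 0 for each gene. Kdm1b, Kdm5a and Kdm5b are lower at 60–65 μm than at 10–30 μm, with no overlap, while Kdm1a, Kdm5c and Cxxc1 stay between 4.58 and 6.56 RPKM.

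The KDM5 genes took different courses. Kdm5b (chr1:134560171-134632877, plus strand), an enzyme best known as a repressor in stem and tumour cells, had 1.75 and 2.04 RPKM at 10–30 μm, 0.566 and 0.751 RPKM at 40–45 μm, 0.340 and 0.405 RPKM at 50–55 μm, 0.308 and 0.275 RPKM at 60–65 μm, and 0.278 RPKM in GV oocytes. No 2 classes of growing oocytes overlapped, and the GV value lay within the 60–65 μm pair. These levels rested on 251 to 2523 reads per library.

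Kdm5b fell by 1.35 on the log2 scale from 10–30 to 40–45 μm (SE 0.143, adjusted p = 0.00101) and by 0.99 from 40–45 to 60–65 μm (SE 0.143, adjusted p = 0.00157). The whole fall came to 2.34 (95% interval -2.66 to -2.01, adjusted p = 8.19e-06), and the pseudocount understates it at these levels. It was -2.71 with edgeR on the recovered reads and -1.15 with a pseudocount of 1. It reached the threshold of 0.5 RPKM for a gene to be tested only in the 10–30 and 40–45 μm libraries, so its entry into the test was not independent of its fall. Between 40–45 and 50–55 μm it fell by 0.70 (adjusted p = 0.0248), a call that was lost when 40–45 μm replicate B (-0.54, adjusted p = 0.145), either 50–55 μm library (-0.60 without replicate A, adjusted p = 0.208, and -0.79 without replicate B, adjusted p = 0.066) or either 60–65 μm library (-0.69 without each, adjusted p = 0.0537 and 0.0535) was left out.

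Kdm5a (chr6:120364099-120444574, plus strand), first described as a partner of the retinoblastoma protein, had 2.35 and 2.33 RPKM at 10–30 μm, 1.65 and 1.54 RPKM at 40–45 μm, 1.30 RPKM in both libraries at 50–55 μm, 0.975 and 1.13 RPKM at 60–65 μm, and 0.792 RPKM in GV oocytes. Each class lay below the one before without overlap. It fell by 1.07 over the whole of growth (SE 0.113, adjusted p = 8.53e-05). From 10–30 to 40–45 μm it fell by 0.47 (adjusted p = 0.0212), and the call was lost without 10–30 μm replicate A (-0.42, adjusted p = 0.0943), 40–45 μm replicate A (-0.54, adjusted p = 0.0572) or 40–45 μm replicate B (-0.39, adjusted p = 0.0994). From 40–45 to 60–65 μm it fell by 0.61 (adjusted p = 0.00464), and this call was lost without 60–65 μm replicate A (-0.50, adjusted p = 0.0533). Kdm5a shares 276 bases with Ccdc77 on the other strand, which had 0.598–0.715 RPKM in growing oocytes.

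Kdm5c (chrX:152233020-152274535, plus strand), the X-linked member, had 5.03 and 6.56 RPKM at 10–30 μm, 4.99 and 5.57 RPKM at 40–45 μm, 5.45 and 5.88 RPKM at 50–55 μm, 5.87 and 5.70 RPKM at 60–65 μm, and 5.29 RPKM in GV oocytes. The classes overlapped, except that both 60–65 μm libraries lay above both 40–45 μm libraries, a difference of 0.08 that did not pass the test (95% interval -0.18 to 0.35, adjusted p = 0.595). Over the whole of growth the log2 difference was 0.02 (95% interval -0.24 to 0.28, adjusted p = 0.883). Its Y-linked paralogue Kdm5d was at 0 in all 9 columns.

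As Kdm5a and Kdm5b fell, Kdm5c made up a larger part of the KDM5 transcripts. Its share of the RPKM of the 3 genes was 55.1% and 60.0% at 10–30 μm, 69.2% and 70.8% at 40–45 μm, 76.9% and 77.5% at 50–55 μm, 82.1% and 80.2% at 60–65 μm, and 83.2% in GV oocytes. The summed level of the 3 genes was 9.14 and 10.9 RPKM at 10–30 μm and between 7.09 and 7.87 RPKM in all later libraries of growing oocytes.

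Cxxc1 (chr18:74216131-74221491, plus strand), the member on the side of the methyltransferases, had 5.94 and 6.39 RPKM at 10–30 μm, 5.56 and 6.40 RPKM at 40–45 μm, 5.71 and 5.61 RPKM at 50–55 μm, 6.32 and 5.48 RPKM at 60–65 μm, and 5.87 RPKM in GV oocytes. The 60–65 μm pair overlapped each of the earlier classes. The log2 difference over the whole of growth was -0.05 (95% interval -0.29 to 0.18, adjusted p = 0.670), and neither step passed the test (adjusted p = 0.932 and 0.634).

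In the order of levels Kdm1b stood first in every library. Cxxc1, Kdm5c and Kdm1a followed with means over growing oocytes of 5.93, 5.63 and 5.51 RPKM and with overlapping ranges, so that their order does not stand beyond the spread. Kdm5a lay below these 3 and above Kdm5b in every library.

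**Figure D2:**
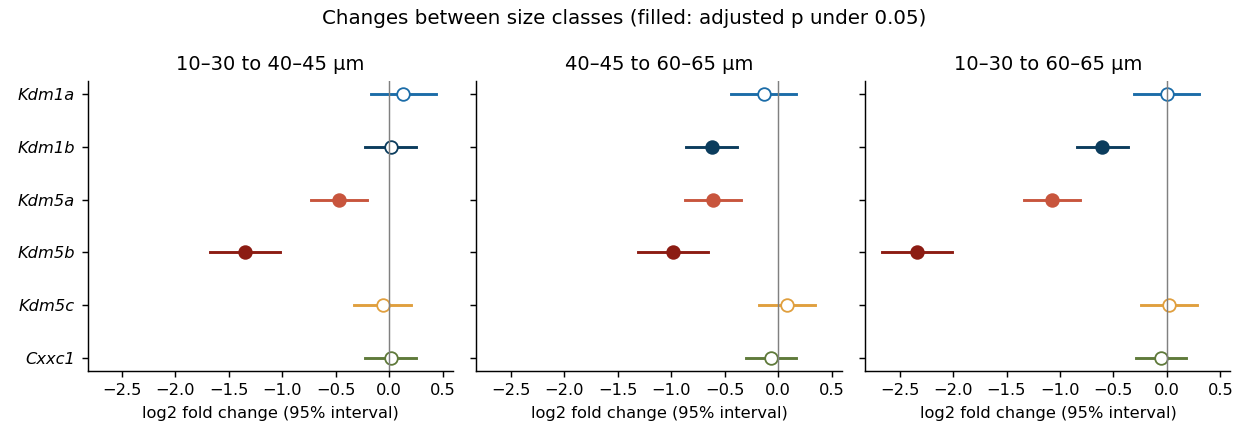
Log2 fold change of each member for 3 comparisons of size classes, from limma on log2(RPKM + 0.1) over 8 libraries; bars are 95% intervals and filled points have an adjusted p under 0.05. Kdm5b lies farthest to the left in each panel, of these 3 comparisons the interval of Kdm1b excludes 0 in the 2 that end at 60–65 μm, and the intervals of Kdm1a, Kdm5c and Cxxc1 include 0 throughout.

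No member rose past the test in any comparison. From 10–30 to 40–45 μm 2 of 6 members fell, where 10.4% of the genes tested fell, 12.8% rose and 23.2% changed in either direction (1348 rose and 1093 fell). Of those calls 55.2% were rises, against 41.7% when the RPKM values were used without scaling of the libraries. From 40–45 to 60–65 μm 3 of 6 fell, against 17.9% of genes that fell, 19.4% that rose and 37.3% that changed. Kdm5b is counted in all these falls, and it was tested only through the early classes where it was high. Over the whole of growth the same 3 fell, against 31.3% of genes that fell, 32.1% that rose and 63.4% that changed, so that a change of some kind was the common case. From 40–45 to 50–55 μm 1 of 6 fell, where 3.21% of genes fell, 5.91% rose and 9.13% changed. From 50–55 to 60–65 μm limma called 0 genes and edgeR on the recovered reads also 0, with 1448 and 1417 genes at an unadjusted p under 0.05. The median log2 change of the members was -0.02, -0.37 and -0.33 in the first, second and whole interval, beside -0.01, 0.01 and 0.01 for all genes tested. The falls of Kdm5a and Kdm5b ran beside a fall of the stroma and theca markers. These summed to 3.88 and 2.71 RPKM at 10–30 μm, 1.69 and 0.656 RPKM at 40–45 μm, 0.696 and 0.415 RPKM at 50–55 μm and 1.02 and 0.893 RPKM at 60–65 μm. The granulosa cell markers meanwhile rose from 0.835 and 0.814 RPKM to 3.12 and 2.69 RPKM. Single markers did not all follow these sums. From 10–30 to 60–65 μm Col1a1 fell from 1.63 and 1.16 to 0.4 and 0.241 RPKM, while Cyp17a1 went from 0 in both libraries to 0.0132 and 0.107 RPKM. Cyp19a1 rose from 0.161 and 0.159 to 1.25 and 1.04 RPKM, while Foxl2 had 0.0639 and 0.0424, then 0.0642 and 0.0373 RPKM. The part of these markers in the falls of Kdm5a and Kdm5b was not tested. Beside the fall of Kdm1b from 40–45 to 60–65 μm, 4 of 10 oocyte markers fell (3 without scaling) and 1 rose, their sum going from 2962 and 3409 RPKM to 2609 and 2737 RPKM, and the granulosa cell markers went from 1.05 and 0.828 RPKM to 3.12 and 2.69 RPKM. Their part in the fall of Kdm1b was not tested either.

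Among genes with a mean of at least 1 RPKM (8531 genes), those whose log2 levels followed a member most closely over the 9 columns were Lyrm7 (r = 0.992), Pabpc4 (0.989) and Kif4 (0.989) for Kdm1b, Nat2 (0.996), Crot (0.996) and Chek2 (0.996) for Kdm5a, and Tfap4 (0.997), Oxsr1 (0.994) and Arpc5 (0.994) for Kdm5b. Kif4 lay nearest to Kdm1b in level, with a mean of 68.4 RPKM at 10–30 μm and 41.2 RPKM at 60–65 μm. For the members without a called change the closest were Zfp335 (0.941), D10Bwg1379e (0.937) and Ssbp3 (0.923) for Kdm1a, Rbbp6 (0.944), Scrib (0.941) and Cnnm4 (0.934) for Kdm5c, and Zfp821 (0.830), Bri3 (0.813) and Cdc25b (0.800) for Cxxc1. All these correlations come from the same 9 columns and describe them only.

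Partners and opponents of the members were read from lists of genes. Over the whole of growth 32.1% of all genes tested rose and 31.3% fell, with a median log2 change of 0.01. The counts of each list are to be read beside these shares. Of 11 partners of the KDM1 enzymes, all tested, 4 rose and 2 fell over the whole of growth (3 and 3 without scaling). Among those that rose were the CoREST scaffold Rcor1, from a mean of 2.05 to 3.42 RPKM (log2 0.74, adjusted p = 0.00255), and Gse1, from 2.54 to 5.99 RPKM (1.33, adjusted p = 0.0155), while the deacetylase Hdac1 fell by 1.23 (from 2.93 to 1.18 RPKM, adjusted p = 0.000231). Glyr1, a partner of KDM1B that binds nucleosomes, had 13.4 and 15.2 RPKM at 10–30 μm and 16.7 and 16.6 RPKM at 60–65 μm and rose by 0.23 (adjusted p = 0.0442, and 0.0679 without scaling; named after its values were seen). The median log2 change of the list was 0.15.

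Of 9 SIN3 and other corepressor partners of the KDM5 enzymes, 3 rose and 3 fell, beside 32.1% and 31.3% of all genes tested. Sap30, a subunit of the SIN3 complex, rose from 20.7 to 56.4 RPKM (log2 1.46, adjusted p = 0.000436) and the scaffold Sin3a from 22.9 to 33.8 RPKM (0.58, adjusted p = 0.0048). The histone-binding Rbbp4 fell by 0.66 (adjusted p = 0.00135) and the chromodomain protein gene Morf4l1 by 0.48 (adjusted p = 0.00711). The median of the list was 0.11.

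On the side that writes H3K4 methylation, 5 of 7 methyltransferase genes passed the filter. Of these 2 rose and 1 fell (1 and 1 without scaling), beside 32.1% and 31.3% of all genes tested. Setd1a, whose product works with CXXC1, rose from 1.10 to 2.07 RPKM (log2 0.90, adjusted p = 0.0108) and Kmt2c from 4.36 to 6.01 RPKM (0.50, adjusted p = 0.0426, and 0.0731 without scaling). Prdm9, the methyltransferase of meiotic recombination sites, fell by 1.78 from 0.942 to 0.2 RPKM (adjusted p = 1.83e-05), and it entered the test only through the 10–30 and 40–45 μm libraries, where it was highest. The 7 genes summed to 7.02 and 11 RPKM at 10–30 μm and to 13 and 11.1 RPKM at 60–65 μm. Of 12 subunits of their complexes 6 rose and 3 fell, with a median of 0.52. Kdm6a, an H3K27 demethylase of the KMT2C and KMT2D complexes, rose by a log2 of 0.78 (adjusted p = 0.000142), the chromatin reader Psip1 by 0.69 (adjusted p = 0.00134) and Wdr82, the subunit particular to the SETD1 complexes, by 0.68 (adjusted p = 0.000223), while the core subunit Ash2l fell by 0.70 (adjusted p = 0.000221).

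Among 11 other genes with a CXXC zinc finger 8 passed the filter, 4 rose and 1 fell, with a median of 0.54. The rises were of Kdm2b, an H3K36 demethylase, from 3.20 to 10.6 RPKM (log2 1.73, adjusted p = 9.79e-05), of Tet3, a 5-methylcytosine dioxygenase, from 10.4 to 26.4 RPKM (1.41, adjusted p = 0.00266), of Fbxl19 (0.79, adjusted p = 0.000443) and of Kdm2a (0.42, adjusted p = 0.0238; named after its values were seen), and Cxxc5 fell by 2.03 (adjusted p = 3.84e-05), although it reached 0.5 RPKM only in the 10–30 μm libraries, so that its entry into the test was tied to its fall. The 3 genes of de novo methylation all rose, Dnmt3l from 0.857 to 9.79 RPKM (log2 3.36, adjusted p = 6.82e-06), the H3K36 methyltransferase Setd2 from 4.06 to 6.39 RPKM (0.68, adjusted p = 0.00287) and Dnmt3a from 2.53 to 3.62 RPKM (0.52, adjusted p = 0.00773). These counts stand beside the 63.4% of all genes tested that changed over the whole of growth, of which 32.1% rose and 31.3% fell as shares of all genes tested.

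DNA methylation was read at positions with at least 5 reads. Within 1000 bases on each side of the start, the mean over positions lay between 0% and 2.96% for every member in each of the 6 RRBS libraries, and between 1.53% and 5.47% in PBAT. For comparison, the median over the genes tested was 0.360–0.607% in RRBS and 3.51% in PBAT. The highest RRBS values belonged to Kdm1a, with 2.50% in 50–55 μm replicate A and 2.96% in 60–65 μm replicate B, while replicates B and A of the same classes had 0.752% and 0.516%.

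Of the promoters printed above, the PBAT library covered 30 positions in that of Kdm1b, with 8 methylated calls of 210 (3.81%), and 26 positions in that of Kdm5b, with 2 of 207 (0.966%). That of Kdm1a had 8 methylated calls of 86 (9.30%) over 14 positions. In RRBS 60–65 μm replicates A and B the Kdm5b sequence, covered at 4 positions, had 2 methylated calls of 122 and 0 of 76, the latter allowing a share of up to 3.95%. The Kdm1a sequence, also at 4 positions, had 0 of 36 and 0 of 28, which allow up to 8.33% and 10.7%. The Kdm1b sequence was covered at only 1 position in each of these libraries, with 0 of 58 and 0 of 24 calls methylated, which allow at that position up to 5.17% and 12.5%, and these limits cover counting error only. The highest value in these windows with RRBS was in the Kdm5b sequence at 50–55 μm, with 7 methylated calls of 88 (7.95%) over 4 positions in replicate A, where replicate B had no position with 5 reads.

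The bodies of the members gained methylation as the oocytes grew, where RRBS could see it. Taking the body from 2000 bases past the start to the end, only Kdm1a and Kdm1b had at least 10 positions with RRBS. Kdm1a had 2.51% and 1.27% in replicates A and B at 40–45 μm, 32.7% at 50–55 μm (replicate A; replicate B had 60.7% from 9 positions), and 65.1% and 69.6% at 60–65 μm. In Kdm1b the 40–45 μm replicates had 1.56% and 1.28%, the 50–55 μm replicates 5.66% and 11.1%, and the 60–65 μm replicates 19.7% and 21.0%. At 60–65 μm the values of Kdm1a were above, and those of Kdm1b below, the medians over the genes tested of 31.6% and 32.4%. The RRBS positions of Kdm1a at this size lay in 2 stretches that differed, with 90.7% and 96.4% in replicates A and B between 14 and 16 kb past the start and 34.4% and 42.8% between 50 and 52 kb. The second was close to the highest tile of Kdm1b, from 4 to 6 kb (34.5% and 36.6%), and above the other tiles inside Kdm1b, which had 8.6% to 21.75%. It lay slightly to moderately above the medians, so the high mean of Kdm1a in RRBS rests mainly on the first stretch, of 2 kb.

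The same positions were also followed in all 6 libraries, a choice made after the values were seen. For Kdm1a 8 such positions, within the same 2 stretches (the first at 15.7 and the last at 50.8 kb past the start), went from 3.20% and 1.91% in the 40–45 μm replicates through 42.6% and 55.8% at 50–55 μm to 68.9% and 72.4% in the largest class. For Kdm1b 14 positions, between 5.74 and 23.3 kb past the start, had 1.83% and 1.84%, then 6.47% and 11.1%, then 26.3% and 27.4%. No test was run on these differences. An exact permutation test of 2 libraries against 2 could not have gone below 0.333.

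**Figure D3:**
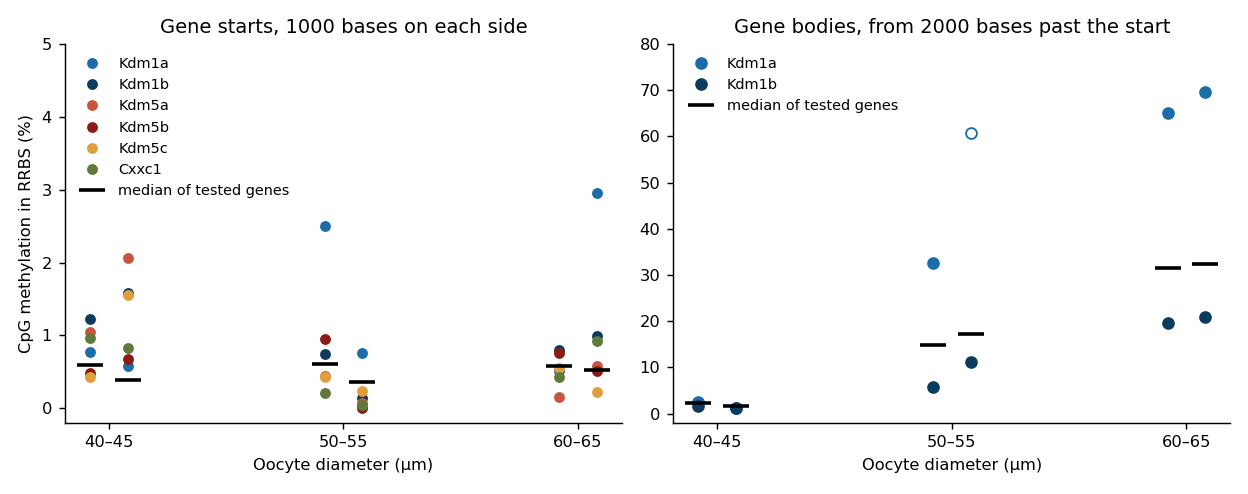
CpG methylation in the 6 RRBS libraries at the gene starts of the members (left, axis to 5%) and in the bodies of Kdm1a and Kdm1b (right, axis to 80%); black bars are the median over the genes tested and the open circle is a body with 9 positions. The starts stay at or below 2.96%, and at 60–65 μm the bodies reach 65.1% and 69.6% for Kdm1a but 19.7% and 21.0% for Kdm1b.

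The PBAT library of 60–65 μm oocytes gave a body value for all 6 members. Kdm5c had 72.6% (122 positions), Cxxc1 69.7% (142 positions), Kdm1a 65.1% (86 positions) and Kdm5a 61.0% (47 positions), above 95.9%, 92.9%, 85.2% and 76.0% of 8739 bodies of genes tested, whose median was 50.6%. Kdm1b had 29.3% (197 positions) and Kdm5b 20.9% (105 positions), above 17.7% and 10.7% of these bodies. Pooled over calls, 439 of 1496 were methylated in Kdm1b (29.3%, 95% Wilson interval 27.1–31.7%) and 183 of 817 in Kdm5b (22.4%, 19.7–25.4%), against 380 of 568 in Kdm1a (66.9%, 62.9–70.6%). With the body counted from the start itself, which takes in the unmethylated start region, the mean of Kdm1b was 22.9% and that of Kdm5b 9.74%, while Kdm1a moved to 30.8%, Kdm5a to 40.1%, Cxxc1 to 44.5% and Kdm5c to 47.2%. In the same way the RRBS means at 60–65 μm became 20.4% for Kdm1a and 6.28% for Kdm1b.

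Along the genes, the low values of Kdm1b were spread over its length. Between 4 and 38 kb past the start, 2-kb tiles with at least 3 positions lay between 14.7% and 56.5%, whereas upstream of the gene, from 10 to 4 kb before the start, they had 70.0%, 57.1% and 73.3%. In Kdm1a the 12 such tiles ranged from 17.5% to 91.1%, with those between 12 and 20 kb past the start at 85.7–91.1%, so single tiles of Kdm1a and Kdm1b overlapped. In Kdm5b no tile with at least 3 positions inside the gene was above 35.2%, the value of the tile from 68 to 70 kb past the start. Tiles with 1 position were left out, and those between 30 and 38 kb had 60%, 60%, 50% and 100%, while that from 38 to 40 kb had 0%.

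**Figure D4:**
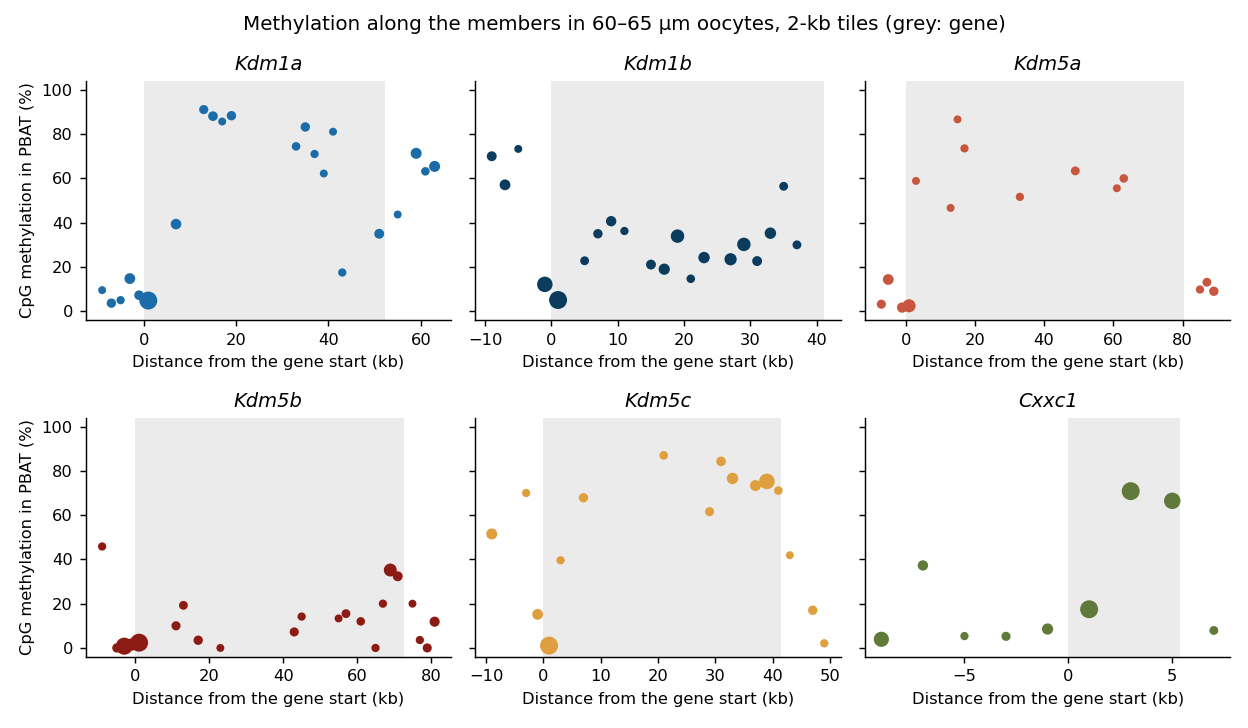
CpG methylation of 60–65 μm oocytes (PBAT, 1 library) in 2-kb tiles with at least 3 positions by distance from the gene start; the grey span is the gene and larger points hold more positions. The tile from 0 to 2 kb is at 17.5% in Cxxc1 and at 1.05–5.07% in the other genes, and the tile just upstream reaches 15.2% in Kdm5c. Tiles inside Kdm1a, Kdm5a, Kdm5c and Cxxc1 reach 70.8–91.1% at their highest, and those inside Kdm5b stay at or below 35.2%.

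Body methylation was also set beside the level of the transcript, in ranges of RPKM chosen after the values were seen. Bodies of the 121 genes with a mean of at least 50 RPKM had a median of 34.9% (quartiles 21.9–42.6%), and 48 of them lay below Kdm1b. Among the 424 genes of 20–50 RPKM the median was 43.1%, and among 2444 genes of 5–20 RPKM, the range of Kdm1a, Kdm5c and Cxxc1, it was 51.8%. The 4105 genes of 1–5 RPKM, the range of Kdm5a, had 53.0%. In the range of Kdm5b, below 1 RPKM, 1645 genes had a median of 42.4% (quartiles 22.9–57.3%), and 361 lay below Kdm5b. Kdm1b thus lay between the quartiles of genes of its level, and Kdm5b just under the lower quartile of its own.

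**Figure D5:**
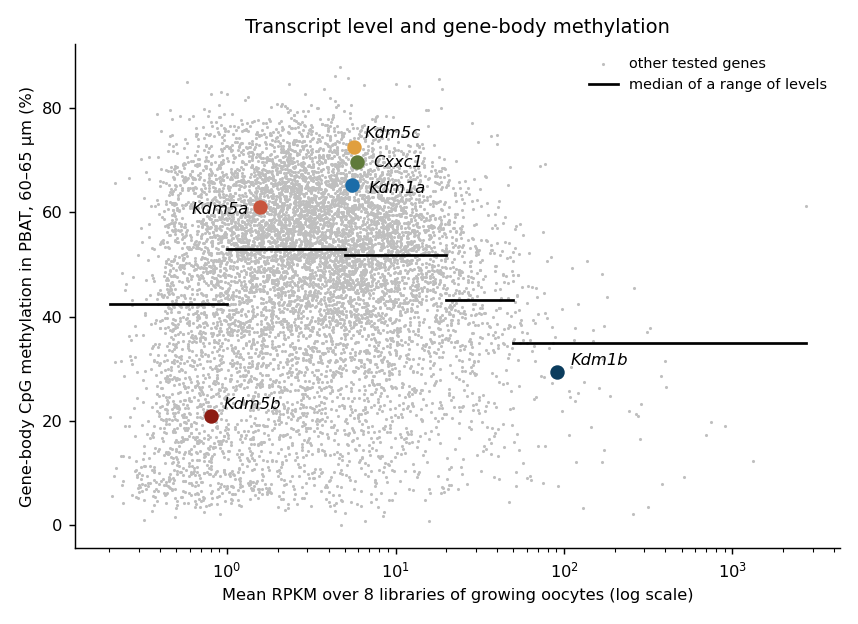
Mean RPKM over 8 libraries of growing oocytes (log scale) against body methylation in PBAT at 60–65 μm for 8739 genes; black lines are medians within ranges of RPKM and coloured points are the members. Kdm1b, at 91.4 RPKM, lies near the median of the highest range, and Kdm5b, at 0.806 RPKM, lies low in the lowest range.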

How the data were processed

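The authors aligned the RNA reads with TopHat2 2.0.9 (1 placement per read) and the bisulphite reads with Bismark 0.10.0 or 0.14.0 to GRCm38, after Trim Galore 0.2.8 or 0.3.5, per the study's methods and the submitters' processing notes. The deposited expression values are RPKM. No header names the unit, and which tool made the table is not given in the sources used here, but the step of 1 read was found from short receptor genes, of which 91.2–100% per column were whole multiples of it by their genomic span (tolerance 0.02), and with an exon length fitted to each gene all 10518 genes tested (100%) gave whole reads in all 9 columns (tolerance 0.05). The deposited methylation files give, for each cytosine, the percent methylated and the counts of methylated and unmethylated calls. RNA columns held 26181208 to 58479604 recovered reads, and the lowest count of a member was 251 reads. PCR duplicates were not marked by molecular identifiers, so intervals and limits cover counting error only.

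RPKM columns were scaled by a trimmed mean of ratios (30% and 5% trimmed, factors 0.959–1.05). A gene was tested if 2 of the 8 growing-oocyte libraries reached 0.5 RPKM, with limma 3.58.1 (R 4.3.3; trend, all 8 libraries in 1 fit, two-sided) on log2(RPKM + 0.1), which understates changes of low genes. GV oocytes had 1 column and entered no test. edgeR 4.0.16 was run on the recovered reads. Methylation was averaged over autosomal and X-linked positions covered by 5 reads or more (Python 3.11.15, numpy 2.4.6, pandas 2.3.3), bodies needed 10 positions, and bodies of other genes also at least 4 kb. Nothing in the labels says that replicates came from separate animals, so p-values measure only the spread between these samples.

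The members and gene lists were chosen with earlier results of these data known. Named were the 6 members, in each list the 4 genes with the largest change among those past the test (others are marked, and 1 such gene is not reported here), and for each member the 3 genes with the highest correlation. The edgeR fit, the test of the difference between steps, the ranges of RPKM and the positions shared by all RRBS libraries were chosen after seeing the data. Alternatives were other pseudocounts (0.01 and 1), filters, scalings, a replicate block, leaving out each library, and other coverage minimums (3 and 10 reads) and windows. The scripts were tested on simulated data.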

Additional observations from a re-analysis of the deposited data

How the results depend on the processing

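Of the values recomputed under alternatives, 738 kept their direction and side of the threshold or stayed within the spread, 48 moved, 11 lost a call and 0 reversed. Body methylation was less stable than this tally. For single members 14 PBAT values moved and 10 stayed, and 5 RRBS values moved and 9 stayed. For the median PBAT body 2 moved and 2 stayed. The falls of Kdm1b from 40–45 to 60–65 μm (-0.71 to -0.53 on the log2 scale, adjusted p 0.00093–0.0452) and of Kdm5b (-2.71 to -1.15) and Kdm5a (-1.18 to -0.69) over the whole of growth kept their calls under 17 of 17 alternatives. Except without a filter on low values, Kdm5b entered these fits only through the 10–30 and 40–45 μm libraries, where it was high. With only the 4 libraries compared, 570 genes rose and 384 fell from 10–30 to 40–45 μm, and 1 member fell, Kdm5a losing its call (-0.45, adjusted p = 0.0851), with fewer libraries to estimate the spread. Without a filter on low values the call of Kdm5b from 40–45 to 50–55 μm was lost (-0.70, adjusted p = 0.0673). Leaving out 1 library gave 541–1575 rises, 304–1322 falls and 1–2 members that fell from 10–30 to 40–45 μm, with the fewest genes without 40–45 μm replicate A (541 and 304), 10–30 μm replicate A (850 and 335) or 40–45 μm replicate B (1017 and 668). From 40–45 to 60–65 μm it gave 763–2339 rises, 560–2116 falls and 2–3 members that fell, with 763 and 560 without 60–65 μm replicate A, 1264 and 1141 without 60–65 μm replicate B, 1342 and 1092 without 40–45 μm replicate B and 1528 and 1251 without 40–45 μm replicate A.

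Same-letter deviations correlated at 0.596, 0.589 and 0.670 between the 10–30, 40–45 and 50–55 μm classes, but at -0.227, -0.0254 and 0.113 between these and the 60–65 μm class, so the letters were not taken as pairs over all 4 classes. With the letter as a replicate block 1804 genes rose and 1547 fell in the first interval, 2554 and 2342 in the second and 3689 and 3624 over the whole of growth, and 2, 3 and 3 members fell as without it.

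The median over members at 60–65 μm in RRBS was 0.653% at starts, 0.462% with at least 10 reads, 0.436% within 500 bases and 0.537–0.748% with 1 library left out. The median PBAT body was 63.1%, 74.1% with at least 10 reads (Kdm5a then had 1 position and Kdm1a 6, under the minimum of 10) and 35.5% with the body counted from the start. The bodies of Kdm5a, Kdm5b, Kdm5c and Cxxc1 had under 10 positions with 5 reads in RRBS, and at 60–65 μm still at most 6 with 3 reads. Body values at 60–65 μm in PBAT rest on 1 library.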

Other observations

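In the body of Kdm5c, 5 positions between 36.8 and 37.7 kb past the start had at least 5 reads in all 6 RRBS libraries. Their mean was 0.5% in replicate A and 18.8% in replicate B of the 40–45 μm class. It was 28.6% in A and 20.4% in B of the 50–55 μm class, and 64.7% in A and 47.5% in B of the 60–65 μm class. The 40–45 μm replicates lay farther apart here than at the shared positions of Kdm1a or Kdm1b, and with so few positions within 1 kb these values describe that stretch and not the gene.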
